A study of Mus musculus with 10 samples.

Results

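The 6 microRNAs described here are products of a pair of paralogous gene clusters of the mouse: mmu-miR-23a-3p, mmu-miR-27a-3p, mmu-miR-27a-5p and mmu-miR-24-3p of the miR-23a cluster on chromosome 8, and mmu-miR-23b-3p and mmu-miR-27b-3p of the miR-23b cluster on chromosome 13 (the species prefix is left out from here on). They were chosen by name from the mature microRNA rows of a small RNA count table, and all 6 were found among 1302 mature microRNA rows and 6968 rows in all. The table covers 10 libraries of CD43-negative splenic B-cells, 2 from wild-type (wt) mice without and 2 with LPS (lipopolysaccharide, a polyclonal B-cell activator), the same numbers from 3′RR-deficient mice, and 1 per condition from Eµ-deficient mice. The 3′RR is the enhancer cluster at the 3′ end of the IgH (antibody heavy chain) gene and Eµ is the intronic enhancer of the same gene, deleted in the Eµ-deficient mice with the flanking matrix attachment regions according to the study's methods. Those methods describe all mice as young adults of both sexes on one inbred background. Per the labels every culture lasted 2 days, with LPS at 5 µg/ml or without it, whereas the study's methods for its long RNA describe cells taken before and after stimulation. If the non-stimulated cells were not cultured, LPS and culture cannot be told apart. Each library holds cells pooled from 2 mice, which makes each replicate a pool of animals. Nothing in the labels says that replicates came from separate cultures, so p-values measure the spread between these libraries, which may be technical. The B-cells were obtained by removal of CD43-positive cells, a negative selection that can leave other cell types behind.

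Clustered microRNAs are cut from one primary transcript. Each hairpin gives a 5p and a 3p strand, of which one is usually kept in Argonaute, the protein that carries the microRNA to its target mRNAs, while the other is mostly degraded. The miR-23a cluster is known from myeloid and lymphoid cells, where it is linked to the balance between both lineages, and miR-27 and miR-24 are known from studies of T-cell differentiation. A microRNA recognises its targets mainly through its seed, bases 2 to 8 from the 5′ end, so that miR-23, miR-27 and miR-24 address different mRNAs although they lie side by side.

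The mature sequences of 5 of the 6 members were found in RefSeq (build GRCm38.p6) and are shown with the seed in capitals, because the seed decides which mRNAs each one addresses. The sequence of miR-23b-3p is not printed.
miR-23a-3p: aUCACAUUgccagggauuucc
miR-27a-3p: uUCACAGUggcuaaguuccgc
miR-27b-3p: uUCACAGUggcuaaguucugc
miR-24-3p: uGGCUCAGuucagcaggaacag
miR-27a-5p: aGGGCUUAgcugcuugugagca
The 3p strands of miR-27a and miR-27b shared their seed and differed at 1 of 21 bases, C19U counted from the 5′ end of miR-27a-3p. A read that ends before this base cannot be assigned to one of them. Among the 1093 mature microRNA rows with a sequence, the only other shared seed was that of miR-24-3p, which miR-6413 carries as well. These rows do not include miR-23b-3p, so whether it shares its seed with miR-23a-3p could not be looked up.

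The miR-23a cluster spans 404 bp (chr8:84208518-84208921, plus strand, GRCm38), with the hairpins Mir23a, Mir27a and Mir24-2. Mir23a and Mir27a overlap no other annotated gene, and the end of Mir24-2 touches an exon of the non-coding RNA Gm26532. The miR-23b cluster spans 792 bp (chr13:63300484-63301275, plus strand), with the hairpins Mir23b, Mir27b and Mir24-1 inside the protein-coding gene 2010111I01Rik and opposite an intron of Fancc. Mir23b lies in an intron of 2010111I01Rik, and Mir27b and Mir24-1 overlap annotated exons of it. The mature miR-24-3p is identical in Mir24-2 (chr8:84208875-84208896) and Mir24-1 (chr13:63301251-63301272), and the table counts it once, at the chromosome 8 position, so its reads come from an unknown mixture of both clusters. How reads with several matches were counted is not given, so the level of miR-24-3p may also be incomplete. The other members lie at chr8:84208563-84208583 (miR-23a-3p), chr8:84208727-84208747 (miR-27a-3p), chr8:84208685-84208706 (miR-27a-5p), chr13:63300529-63300549 (miR-23b-3p) and chr13:63300760-63300780 (miR-27b-3p).

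The hairpins of the miR-27 pair are shown with both mature strands in capitals, the 5p strand first, because values of the 5p and the 3p strands are both given below.
Mir27a (chr8:84208672-84208758): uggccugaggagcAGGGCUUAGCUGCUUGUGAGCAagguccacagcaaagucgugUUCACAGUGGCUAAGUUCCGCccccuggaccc
Mir27b (chr13:63300712-63300784): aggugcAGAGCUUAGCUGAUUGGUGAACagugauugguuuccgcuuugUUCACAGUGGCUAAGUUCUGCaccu

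Library totals ranged from 3482540.0 to 18144016 counts, of which 51.4% to 82.1% were in the microRNA class. Replicates of a group differed far beyond counting error, with a chi-square per degree of freedom between 815 and 3268. The second non-stimulated libraries of wt and of 3′RR-deficient cells were the smallest and departed from the first in a similar way (r = 0.654 between the replicate differences of both genotypes over 720 features, which are not independent). The fitted results and the correlations between members are therefore given also without them where that moved a value, an alternative chosen after the data were seen. The 5 B-cell microRNAs listed as markers (miR-150-5p, miR-142a-3p, miR-142a-5p, miR-181a-5p and miR-155-5p) were present in every library and summed to between 84736 and 242696 CPM (counts per 1000000 microRNA counts of a library, after TMM normalization). The sum leaned on miR-142a-5p, which stood at 168504 CPM in wt non-stimulated replicate 1 and 8078 CPM in replicate 2. It does not measure the content of B-cells.

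Of all microRNA counts in a library the 6 members together made up 1.11% to 1.70%, with Wilson 95% confidence intervals no wider than 0.0146 percentage points to either side. In the non-stimulated libraries the share was 1.23% to 1.70% and in the LPS libraries 1.11% to 1.39%, so the ranges overlapped. By the mean, the most abundant member was miR-27b-3p, with 5021 CPM ± 1927 (SD, n = 10), and it ranked 32nd of the 1302 mature microRNAs. It was followed by miR-24-3p with 3009.6 CPM ± 868 (SD, n = 10), miR-23a-3p with 2899.5 CPM ± 1246 (SD, n = 10) and miR-23b-3p with 1956 CPM ± 690.3 (SD, n = 10). The level of miR-27a-3p was 1069 CPM ± 272 (SD, n = 10), and that of its passenger strand miR-27a-5p was 89.0 CPM ± 60.0 (SD, n = 10). These levels can be set side by side because the counted sequences are all 21 or 22 nt long, but ligation and amplification favour some sequences over others.

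Part of this order held in every library. In 10 of 10 libraries miR-27b-3p exceeded miR-24-3p, miR-23a-3p exceeded miR-23b-3p, and miR-23b-3p exceeded miR-27a-3p. Some other pairs did not keep an order. Against miR-23a-3p, miR-24-3p was the higher in 1 of 5 non-stimulated and 5 of 5 LPS libraries, and miR-27b-3p was the higher in 2 of 5 and 5 of 5. Against miR-23b-3p, miR-24-3p was the higher in 3 of 5 and 5 of 5. In 3 non-stimulated libraries, then, miR-23a-3p and not miR-27b-3p was the most abundant member. The margin was small in wt replicate 2 (7141 against 7116 counts) and 3′RR-deficient replicate 2 (9593 against 9209 counts), the smallest libraries. The miR-27b to miR-27a ratio of the 3p strands lay between 2.78 and 7.75, and miR-27a-3p outnumbered miR-27a-5p by 6.77 to 25.9 times.

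The first comparison asked which members respond to LPS. The pair of miR-23 microRNAs, one from each cluster, was lower in each of the 5 LPS libraries than in any non-stimulated one, a complete separation that 21% of all 720 features tested showed. The miR-27 and miR-24 microRNAs overlapped between the conditions. The drop of the miR-23 pair did not pass the adjusted threshold of edgeR's test, and no other member passed it.

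**Figure D1:**
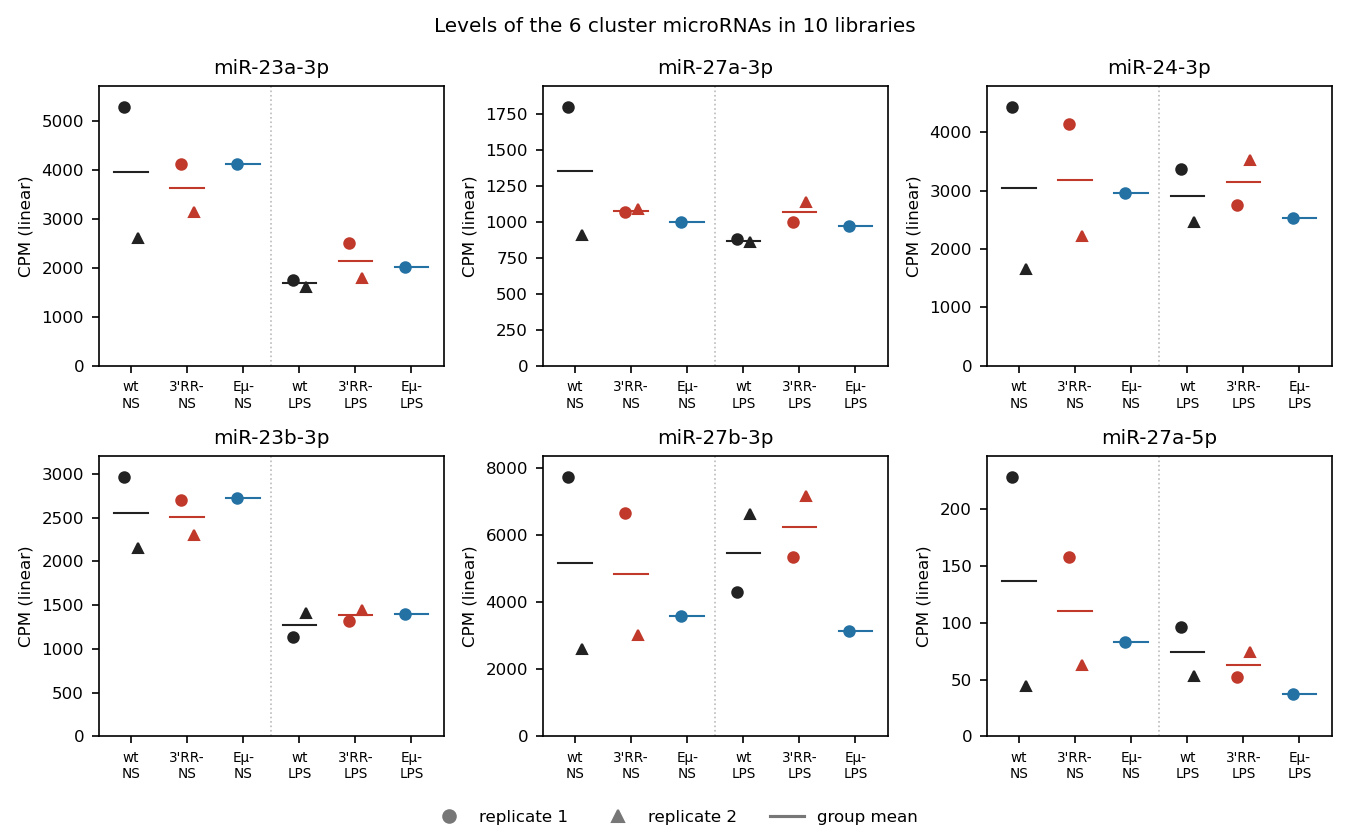
Level of each member in CPM (linear axis from 0) in the 6 groups, with 1 point per library (circle for replicate 1, triangle for replicate 2) and a bar at the group mean. The 5 non-stimulated (NS) libraries lie above the 5 LPS libraries for miR-23a-3p (lowest 2611 against highest 2516 CPM) and for miR-23b-3p (2152 against 1441 CPM), and the conditions overlap for the other 4.

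Without LPS, miR-23a-3p stood at 5295 and 2611 CPM in wt, 4118 and 3152 CPM in 3′RR-deficient and 4121 CPM in Eµ-deficient cells (replicates in order of number). With LPS it stood at 1764 and 1616 CPM in wt, 2516 and 1788 CPM in 3′RR-deficient and 2014 CPM in Eµ-deficient cells. Both wt LPS libraries were the lowest of all 10, and the gap between the conditions was narrow at the second wt non-stimulated library. The mean over the genotypes went from 3859 CPM ± 1031 (SD, n = 5) to 1939.6 CPM ± 352 (SD, n = 5). Over wt and 3′RR-deficient cells together the fitted log2 change was -0.87 (SE 0.42, adjusted p 0.159, edgeR's quasi-likelihood test with Benjamini-Hochberg adjustment over 720 features).

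Its paralogue miR-23b-3p separated the conditions by a wider gap. It stood at 2964 and 2152 CPM in wt, 2708 and 2301 CPM in 3′RR-deficient and 2729.9 CPM in Eµ-deficient cells without LPS, and at 1132 and 1412 CPM, 1325 and 1441 CPM, and 1398 CPM with LPS. No non-stimulated library came near the LPS range. The means were 2571 CPM ± 334 (SD, n = 5) and 1342 CPM ± 125 (SD, n = 5), and the fitted log2 change -0.82 (SE 0.37, adjusted p 0.136, edgeR). With DESeq2 both miR-23 microRNAs passed, with log2 fold changes of -0.91 (adjusted p 0.0442) for miR-23a-3p and -0.86 (adjusted p 0.0109) for miR-23b-3p. With both second non-stimulated libraries left out they changed by -1.34 (adjusted p 0.00577, edgeR) and -1.14 (adjusted p 0.0114, edgeR).

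The miR-27 microRNAs of the same clusters did not separate the conditions. For miR-27b-3p the levels were 7734 and 2602 CPM in wt, 6674 and 3026 CPM in 3′RR-deficient and 3582 CPM in Eµ-deficient cells without LPS, and 4296 and 6632 CPM, 5339.5 and 7183 CPM, and 3143 CPM with LPS. The first non-stimulated libraries were far above the second in both genotypes, and the LPS values spread over the range from 3143 to 7183 CPM. The fitted log2 change was 0.32 (SE 0.48, adjusted p 0.673, edgeR) and turned to -0.35 (adjusted p 0.457, edgeR) without the second non-stimulated libraries, so these data give it no direction. For miR-27a-3p the range was 904 to 1797 CPM without and 856 to 1136 CPM with LPS, and the fitted log2 change was -0.20 (SE 0.40, adjusted p 0.748, edgeR), or -0.59 (edgeR) without the second non-stimulated libraries, again without passing. The SD of the log2 CPM of miR-27a-3p over 10 libraries was 0.31, against a median of 1.24 over 720 features. Of these features 0.278% had a smaller one. The features were not matched for abundance. The other 3p members also had small SDs, with 2.5% to 8.61% of features below them.

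The levels of miR-24-3p were 4441 and 1656 CPM in wt, 4152 and 2225 CPM in 3′RR-deficient and 2962 CPM in Eµ-deficient cells without LPS, and 3366 and 2469.6 CPM, 2764 and 3532 CPM, and 2528 CPM with LPS. All 5 LPS values of miR-24-3p lay between those of the first and of the second non-stimulated libraries of wt and 3′RR-deficient cells. Its fitted log2 change was 0.07 (SE 0.46, adjusted p 0.915, edgeR), and -0.54 (adjusted p 0.22, edgeR) without the second non-stimulated libraries. The passenger strand miR-27a-5p ranged from 44.6 to 228 CPM (median 83.0) without and from 37.4 to 95.9 CPM (median 53.4) with LPS. The fitted log2 change was -0.73 (SE 0.57, adjusted p 0.387, edgeR) and -1.51 (adjusted p 0.00647, edgeR) without the second non-stimulated libraries.

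By edgeR 0 of 6 members passed over wt and 3′RR-deficient cells together, whereas 21.8% of all 720 features tested did (13.2% higher and 8.61% lower with LPS). At an unadjusted p under 0.05 there was 1 member (miR-23b-3p), against 36.7% of all features. DESeq2 called 2 of 6, against 34.3% of all features, and edgeR called 3 of 6 without the second non-stimulated libraries, against 26.3% of 824 features, all 3 lower with LPS. The median log2 fold change of the 6 members was -0.46 and that of all features 0.07. Complete separation of the conditions was seen in 2 of 6 members over wt and 3′RR-deficient cells, both lower with LPS, where 31.9% of all features separated (18.2% higher and 13.8% lower). The same 2 separated over all 10 libraries, where 21% of all features did (13.3% higher and 7.64% lower). Within wt alone and within 3′RR-deficient cells 0 members had an unadjusted p under 0.05, against 21.7% and 19.3% of all features. DESeq2 called 0 members in either. By edgeR's adjusted p 0 of 6 passed within wt (0.694% of all features) and 0 of 6 within 3′RR-deficient cells (0.972%). These shares are unstable, since DESeq2 called 14.3% and 13.5% of all features, and with 1 library left out edgeR's calls ranged from 0 to 71 for wt and from 0 to 62 for 3′RR-deficient cells.

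**Figure D2:**
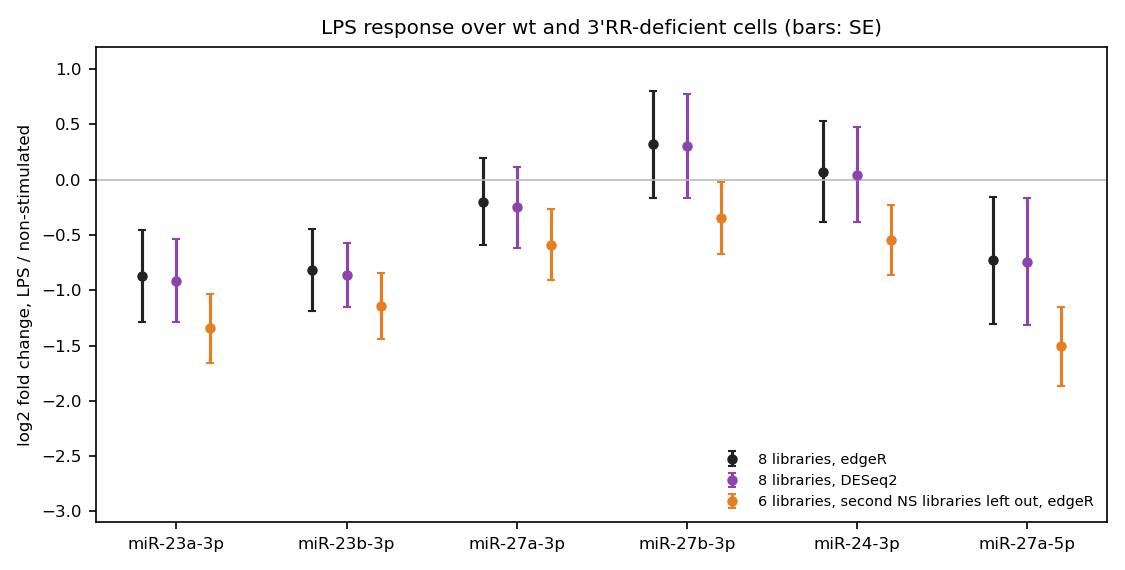
Log2 fold change of each member between LPS and non-stimulated libraries over wt and 3′RR-deficient cells, with its SE, by edgeR on 8 libraries (black), DESeq2 on the same 8 (purple) and edgeR on 6 libraries without the second non-stimulated ones (orange). The miR-23 pair is below 0 in all 3 fits (-0.87, -0.91 and -1.34 for miR-23a-3p), while miR-27b-3p and miR-24-3p cross 0 between the fits.

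Other microRNAs moved with the same conditions. Of 10 markers of myeloid, erythroid, endothelial and stromal cells, 6 were called lower and 0 higher with LPS by edgeR (8.61% and 13.2% of all features), over wt and 3′RR-deficient cells, and 9 were above 0 in every library (stromal miR-145a-5p was at 0 in both 3′RR-deficient LPS libraries). Their summed level ranged from 3502 to 15174 CPM without and from 295 to 5217 CPM with LPS, and the myeloid marker miR-223-3p changed by -3.49 on the log2 scale (SE 0.53, adjusted p 0.00261, edgeR). In Eµ-deficient cells, which that fit leaves out, the stromal marker miR-143-3p stood at 490 CPM without and 836 CPM with LPS, and miR-223-3p at 5526 and 513 CPM. The B-cell markers moved as well in the fit over wt and 3′RR-deficient cells, with miR-155-5p at 2.76 (adjusted p 0.00261, edgeR), miR-150-5p at -2.45 (adjusted p 0.00392, edgeR) and miR-181a-5p at -2.31 (adjusted p 0.00718, edgeR) on the log2 scale, while miR-142a-3p and miR-142a-5p did not pass. The part of the other cells in the level of the miR-23 pair was not tested. In such bulk samples, fewer cells of a type and less of a microRNA per cell cannot be told apart.

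Ratios between members within a library do not depend on scaling, so they were used to set miR-23 against its neighbours. Relative to miR-23a-3p, both miR-24-3p and miR-27a-3p stood higher in each LPS library than in any non-stimulated one. The ratios between paralogues (miR-23a-3p to miR-23b-3p and miR-27a-3p to miR-27b-3p) showed no such separation. Both ratios that separated share miR-23a-3p, whose own level separated the conditions, so they are not independent of its drop or of each other. The share of all features that separate relative to miR-23a-3p was not computed.

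The count ratio of miR-24-3p to miR-23a-3p was 0.839 and 0.634 in wt, 1.01 and 0.706 in 3′RR-deficient and 0.719 in Eµ-deficient cells without LPS. With LPS it was 1.91 and 1.53, 1.10 and 1.98, and 1.26. The highest non-stimulated value, that of 3′RR-deficient replicate 1, lay just under the lowest LPS value, that of 3′RR-deficient replicate 1. On the log2 scale the mean went from -0.38 ± 0.26 (SD, n = 5) to 0.60 ± 0.37 (SD, n = 5), a 1.96-fold rise (exact permutation test, two-sided, p = 0.00794, the smallest that 5 against 5 can give, adjusted p = 0.0397 over 10 tests of ratios).

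The ratio of miR-27a-3p to miR-23a-3p, whose hairpins are neighbours on chromosome 8, was 0.339 and 0.346 in wt, 0.259 and 0.345 in 3′RR-deficient and 0.242 in Eµ-deficient cells without LPS, and 0.499 and 0.53, 0.397 and 0.635, and 0.481 with LPS. All 5 LPS values exceeded all 5 others. The mean log2 ratio went from -1.72 ± 0.25 (SD, n = 5) to -0.99 ± 0.25 (SD, n = 5), a 1.66-fold rise (exact permutation test, two-sided, p = 0.00794, adjusted p = 0.0397). With both second non-stimulated libraries left out the log2 differences were 0.84 for miR-24-3p and 0.86 for miR-27a-3p. The GC content of the sequences is 47.6% for miR-23a-3p, 52.4% for miR-27a-3p and 54.5% for miR-24-3p. Over 22 settings, GC correction among them, the fitted LPS response (log2) of miR-24-3p exceeded that of miR-23a-3p by 0.56 to 1.2. The response of miR-27a-3p did so by 0.45 to 0.94. These settings refit the same libraries, and a difference between 2 members hardly depends on scaling, so they are not separate support. Whether GC content has a part in these ratios was not tested.

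In the miR-23b cluster the ratio of miR-27b-3p to miR-23b-3p, looked at after the data were seen and therefore given without a test, ranged from 1.21 to 2.61 without and from 2.25 to 4.98 with LPS. Each LPS library lay above the non-stimulated libraries of its own genotype, and only the Eµ-deficient LPS library lay inside the non-stimulated range. Between paralogues, the ratio of miR-23a-3p to miR-23b-3p ranged from 1.21 to 1.79 without and from 1.14 to 1.90 with LPS, a log2 difference of -0.03 (exact permutation test, two-sided, p = 0.857, adjusted p = 0.952). The ratio of miR-27a-3p to miR-27b-3p ranged from 0.16 to 0.359 and from 0.129 to 0.308, a log2 difference of -0.48 (exact permutation test, two-sided, p = 0.151, adjusted p = 0.503). The ratio of the strands miR-27a-5p to miR-27a-3p differed by -0.47 (exact permutation test, two-sided, p = 0.262, adjusted p = 0.655). For these 3 ratios a difference was not detectable with 5 libraries per condition, which does not show that they stayed equal.

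**Figure D3:**
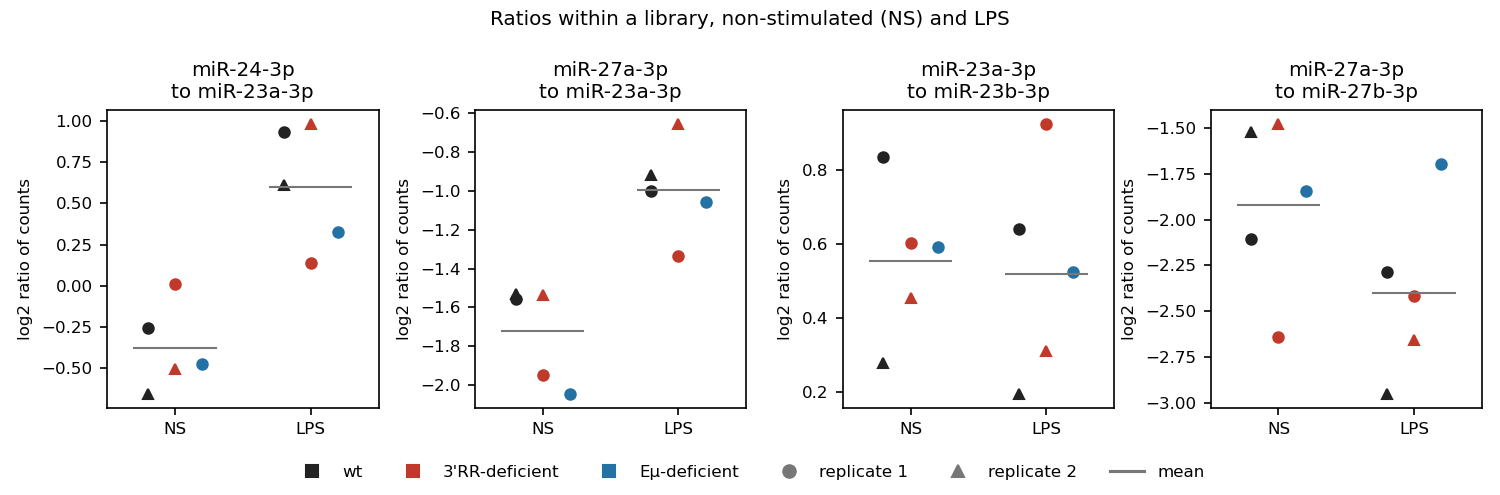
Log2 ratio of the counts of 2 microRNAs within each library, without (NS) and with LPS, colored by genotype, with a line at the mean of 5 libraries. The conditions separate for miR-24-3p to miR-23a-3p (means -0.38 and 0.60) and for miR-27a-3p to miR-23a-3p (means -1.72 and -0.99), and they overlap for the paralogue ratios at the right.

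The levels of the miR-23 paralogues ran closely together, and those of the miR-27 paralogues less so. Over the 10 libraries, as a description of log2 CPM values that share depth and condition, Pearson's r was 0.92 between miR-23a-3p and miR-23b-3p, whose hairpins lie on different chromosomes. It was 0.675 between miR-23a-3p and miR-27a-3p, which share a primary transcript, and 0.365 between miR-23a-3p and miR-24-3p, of which an unknown part shares it. In the miR-23b cluster it was -0.01 between miR-23b-3p and miR-27b-3p. The paralogues miR-27a-3p and miR-27b-3p had r = 0.474, and miR-24-3p and miR-27b-3p had r = 0.776. Without the second non-stimulated libraries r was 0.937 for the miR-23 pair, 0.691 for miR-23a-3p and miR-27a-3p, 0.628 for miR-23a-3p and miR-24-3p, 0.242 for miR-23b-3p and miR-27b-3p, 0.513 for the miR-27 pair and 0.569 for miR-24-3p and miR-27b-3p (8 libraries).

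The non-members most alike over the 10 libraries, among 151 mature microRNAs with a mean of at least 100 CPM, overlapped for the miR-23 pair, with miR-361-5p and miR-200b-3p in both lists. For miR-23a-3p they were miR-200b-3p (r = 0.917), miR-10a-5p (r = 0.882) and miR-361-5p (r = 0.879), and for miR-23b-3p miR-361-3p (r = 0.919), miR-361-5p (r = 0.908) and miR-200b-3p (r = 0.904). For miR-27b-3p they were miR-340-5p (r = 0.921), miR-30a-5p (r = 0.908) and let-7j (r = 0.899), and for miR-24-3p miR-192-5p (r = 0.915), miR-194-5p (r = 0.914) and miR-140-5p (r = 0.903). For miR-27a-3p the closest were miR-1843b-5p (r = 0.655), miR-29c-3p (r = 0.631) and miR-26a-5p (r = 0.612). The median r over the 151 lay between 0.227 and 0.374 for these 5 members.

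The other mature products of both clusters numbered 8, of which 7 were tested. Over wt and 3′RR-deficient cells 1 of the 7 was called higher and 1 lower with LPS by edgeR, where 13.2% of all features were called higher and 8.61% lower. The 2 called were passenger strands, miR-27b-5p and miR-23a-5p, and they moved in opposite directions. Their sequences, with the seed in capitals, share no seed with the 5 members whose sequence is shown.
miR-27b-5p: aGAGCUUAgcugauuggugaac
miR-23a-5p: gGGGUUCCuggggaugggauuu

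The level of miR-27b-5p was 34.7 and 11.0 CPM in wt, 45.8 and 26.6 CPM in 3′RR-deficient and 60.1 CPM in Eµ-deficient cells without LPS, and 108 and 115 CPM, 89.6 and 106 CPM, and 98.3 CPM with LPS. All 5 LPS libraries lay above all 5 non-stimulated libraries, a separation upward that 13.3% of all 720 features showed. The LPS values were close to one another. The fitted log2 change was 1.96 (SE 0.51, adjusted p 0.0206, edgeR). It lost the call when any of wt LPS replicate 1, wt LPS replicate 2, 3′RR-deficient LPS replicate 2 or 3′RR-deficient non-stimulated replicate 2 was left out, with log2 fold changes between 1.77 and 1.94 in those fits and adjusted p-values up to 0.0748 (edgeR). Against its own guide strand it was 0.00422 to 0.0168 without and 0.0148 to 0.0313 with LPS, a ratio looked at after the data were seen. Against the homologous strand miR-27a-5p it was the less abundant in 5 of 5 non-stimulated and the more abundant in 5 of 5 LPS libraries, with a ratio from 0.152 to 2.63 over all 10, also looked at after the data were seen.

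The passenger strand miR-23a-5p stood at 25.8 and 33.3 CPM in wt and 10.2 and 27.6 CPM in 3′RR-deficient cells without LPS, and at 6.42 and 8.27 CPM, and 8.13 and 5.01 CPM with LPS. In Eµ-deficient cells it stood at 12.7 CPM without and 15.3 CPM with LPS, against the direction of the other genotypes. Over wt and 3′RR-deficient cells the fitted log2 change was -1.61 (SE 0.49, adjusted p 0.0375, edgeR). The call was lost without each of the 4 LPS libraries and without each second non-stimulated library, with adjusted p-values from 0.0689 to 0.136 (edgeR) and log2 fold changes from -1.82 to -1.47. The other 5 tested mature products, miR-23b-5p, miR-24-1-5p, miR-24-2-5p, miR-3074-5p and miR-3074-1-3p, had log2 fold changes between -0.25 and 0.64 and did not pass. The product miR-3074-2-3p had 0 counts in 8 of 10 libraries and was not tested.

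The passenger strands of miR-24, unlike miR-24-3p, differ between the loci. Counts of miR-24-2-5p, from chromosome 8, were 3.13 to 37.2 times those of miR-24-1-5p, from chromosome 13, in every library. The mean levels over 10 libraries were 182 CPM ± 103 (SD, n = 10) and 12.6 CPM ± 6.47 (SD, n = 10). Passenger strands can be kept at unequal rates, so this ratio does not give the share of miR-24-3p from each locus. Reads assigned to hairpin rows were few, with at most 145 counts in a library for Mir27a and 58 for Mir27b. The 3 miR-3074 products come from the strand opposite to miR-24, and whether the counting used strand is not given in the sources used here.

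**Figure D4:**
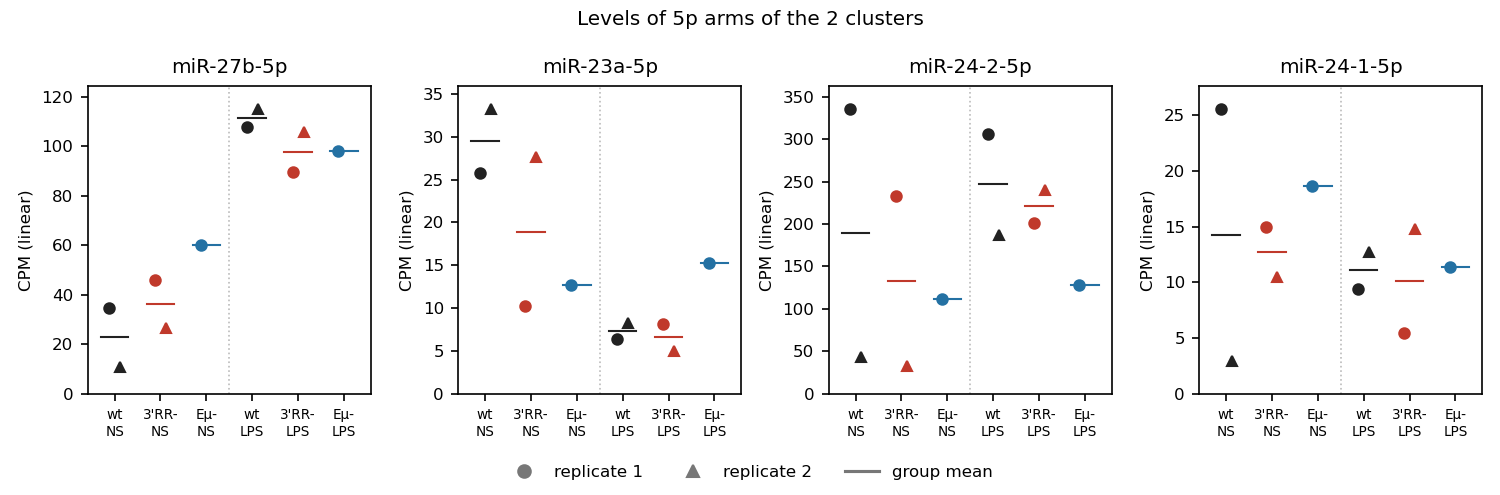
Level in CPM (linear axis from 0) of the 5p strands miR-27b-5p, miR-23a-5p, miR-24-2-5p and miR-24-1-5p in the 6 groups, 1 point per library and a bar at the group mean. For miR-27b-5p the 5 LPS libraries lie at 89.6 CPM and above and the 5 non-stimulated (NS) libraries at 60.1 CPM and below. A separation upward was seen in 13.3% of all 720 features.

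The members were next compared between 3′RR-deficient and wt cells, for effects of the deletion. None of the 6 differed between 3′RR-deficient and wt cells beyond the spread between libraries. By edgeR 0 of 6 passed without LPS (0% of all 720 features), with LPS (0%) and over both conditions (0.139%). At an unadjusted p under 0.05 there were 0 in each (1.25%, 2.08% and 2.92% of all features). DESeq2 called 0 in each (0.139%, 0.278% and 0.278%). Over both conditions the log2 fold changes were 0.19 (SE 0.41) for miR-23a-3p, 0.12 (SE 0.37) for miR-23b-3p, 0.05 (SE 0.40) for miR-27a-3p, 0.14 (SE 0.48) for miR-27b-3p, 0.16 (SE 0.46) for miR-24-3p and -0.20 (SE 0.57) for miR-27a-5p, with adjusted p = 0.997 for each (edgeR). All were smaller than their SE. Without the second non-stimulated libraries they lay between -0.18 and 0.28, with 0 of 6 called (edgeR).

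Set side by side by replicate number, which does not pair the animals, non-stimulated 3′RR-deficient and wt libraries differed in log2 CPM by -0.36 and 0.27 for miR-23a-3p, -0.13 and 0.10 for miR-23b-3p, -0.75 and 0.27 for miR-27a-3p, -0.21 and 0.22 for miR-27b-3p, -0.10 and 0.43 for miR-24-3p, and -0.53 and 0.50 for miR-27a-5p. Each member was thus lower in the first pair and higher in the second. With LPS the differences were 0.51 and 0.15 for miR-23a-3p, 0.23 and 0.03 for miR-23b-3p, 0.18 and 0.41 for miR-27a-3p, and 0.31 and 0.11 for miR-27b-3p. For miR-24-3p (-0.28 and 0.52) and miR-27a-5p (-0.88 and 0.47) the pairs differed in sign. The LPS responses of both genotypes gave 0 of 6 members called when their difference was tested (0% of all features). There were 0 at an unadjusted p under 0.05 (0.694% of all features) and 0 by DESeq2 (0%).

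The 5 ratios within a library differed between 3′RR-deficient and wt cells by -0.14 to 0.09 on the log2 scale. Their p-values, from exact permutation within each condition, lay between 0.444 and 1, where 36 arrangements allow no p under 0.0556.

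The third comparison set Eµ-deficient against wt cells across both conditions, since the Eµ-deficient mice have 1 library per condition. By edgeR 0 of 6 members passed (1.62% of 988 features did, 1.42% higher and 0.202% lower). There were 0 at an unadjusted p under 0.05 (11.4% of all features) and 0 by DESeq2 (5.77%). Without the second non-stimulated libraries 0 of 6 were called by edgeR (7.43% of 955 features), and 2 had an unadjusted p under 0.05 (21.8% of all features), miR-27b-3p with -0.75 (adjusted p 0.172) and miR-27a-5p with -1.04 (adjusted p 0.122). The 2 log2 fold changes farthest from 0 were -1.02 (SE 0.70, adjusted p 0.605) for miR-27a-5p and -0.82 (SE 0.61, adjusted p 0.646) for miR-27b-3p, and those of the other 4 lay between -0.30 and 0.00. The median over all features was -0.17 with this scaling and 0.20 with total count scaling. Within a condition, without a test, miR-27b-3p in Eµ-deficient cells differed from the mean log2 CPM of wt by -0.32 without and by -0.76 with LPS, and its level of 3143 CPM was the lowest of the LPS libraries. The miR-23 pair differed from wt by 0.15 (miR-23a-3p) and 0.11 (miR-23b-3p) without and by 0.25 and 0.15 with LPS. Of 10 markers of other cell types, only the stromal miR-199a-3p was called in the same comparison. It was higher in Eµ-deficient cells (log2 fold change 3.70, adjusted p 0.0318, edgeR), where 1.42% of all features were called higher. The myeloid miR-223-3p had 2.12 (adjusted p 0.0635, edgeR) and did not pass. The part of other cell types in the values of miR-27b-3p and miR-27a-5p was not tested. This comparison shares its wt libraries with that of 3′RR-deficient cells.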

How the data were processed

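Small RNA of 10 libraries was sequenced by the authors with 75 nt reads after 17 PCR cycles, without molecular identifiers stated. The deposited values are whole-number read counts per feature and library, without normalization. The submitters' processing notes name cutadapt 1.2.1, Bowtie2 and the build mm10, and the counting program and the treatment of reads with several matches are not given in the sources used here. The study's paper describes long RNA, not this assay.

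The microRNA class (2015 rows) was tested with edgeR 4.0.16 in R 4.3.3 (TMM, filterByExpr by group, quasi-likelihood F-test, two-sided, adjusted p under 0.05), with wt and 3′RR-deficient libraries in one fit of group means or in an additive fit, and all 10 libraries for Eµ-deficient cells. CPM used TMM over 10 libraries, with a prior count of 2 on the log2 scale. Ratios used counts plus 0.5. DESeq2 1.42.0 and the other alternatives are given in the closing section. Intervals cover counting error only. The calculations were tested on simulated data. The 6 members, their cluster products, same-seed microRNAs, the 3 most alike microRNAs per member and the marker lists were named by rule, and members and lists were chosen with earlier results of these data known. Replicates are pools of 2 mice, and the shared replicate numbers were checked for pairing (r between -0.281 and 0.654 over 6 pairs of groups).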

Additional observations from a re-analysis of the deposited data

Results flagged for a closer look

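The level of miR-27a-3p in wt non-stimulated replicate 1 was 1797 CPM, far from the other 4 non-stimulated libraries (904 to 1087 CPM), and it stood out by Dixon's criterion. Of 22 sets of 5 libraries examined in this way 1 stood out, and chance gives about 1 in 20.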

How the results depend on the processing

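The 3p members had at least 2473 counts in each library, and replicates of a group differed beyond counting error. Over wt and 3′RR-deficient cells together the number of members called with LPS went from 0 to 1 with a filter of 10 CPM (37.3% of 402 features), to 2 with DESeq2 (34.3% of 720) and to 3 without the second non-stimulated libraries (26.3% of 824), each of them lower, and all calls went from 157 to 247 with DESeq2. Within wt the 5 calls became 10 with total count scaling, 50 with no filter, 103 with DESeq2, 3 over mature microRNAs alone, 0 over all features of the table, 39 with GC correction and 79 without the second non-stimulated libraries. Within 3′RR-deficient cells the 7 calls became 31 with no filter, 15 with the 10 CPM filter, 97 with DESeq2, 0 over all features, 15 with only the 4 libraries compared, 27 with GC correction and 50 without the second non-stimulated libraries. Between 3′RR-deficient and wt cells the calls went from 0 to 1 without LPS (DESeq2, and GC correction), from 0 to 2 with LPS (DESeq2, and without the second non-stimulated libraries) and from 1 to 2 over both (DESeq2, GC correction, and without those libraries). Under total count scaling the median over all features shifted from -0.03 to -0.20 with LPS. For Eµ-deficient cells 16 calls became 28 with total count scaling, 47 with no filter, 57 with DESeq2, 156 over all features, 32 with only the 6 libraries compared, 29 with GC correction and 71 without the second non-stimulated libraries.

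Some log2 changes turned. With LPS, miR-24-3p went to -0.68 over all features and -0.54 without the second non-stimulated libraries, miR-27b-3p to -0.51 and -0.35, and miR-27a-3p to 0.10 with GC correction. Between 3′RR-deficient and wt cells miR-27a-3p went to -0.022 (DESeq2 size factors, and DESeq2), -0.024 (total count scaling), -0.011 (mature alone), -0.027 (all 10 libraries) and -0.091 (GC correction). Between Eµ-deficient and wt cells miR-23b-3p went to 0.081 (DESeq2 size factors) and 0.080 (DESeq2), 0.31 (total count scaling), 0.12 (no filter), 0.22 (10 CPM filter, and all features) 0.17 (mature alone, and 6 libraries) and 0.20 (second non-stimulated libraries left out), miR-27a-3p to 0.070 (total count scaling) and 0.21 (GC correction), and miR-24-3p to 0.088 and 0.25. The LPS call of miR-27b-5p was lost over all features (1.18, adjusted p 0.25, edgeR), and that of miR-23a-5p was lost with no filter, all 10 libraries, GC correction or the second non-stimulated libraries left out (-1.59 to -1.05).

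The replicate numbers were not taken to pair the samples. The replicate differences of both genotypes went together without LPS (r = 0.654), and the other 5 of 6 correlations lay between -0.281 and 0.112. With the replicate number as a replicate block, the LPS calls numbered 27 in wt and 11 in 3′RR-deficient cells, and miR-23a-3p between Eµ-deficient and wt cells was -0.23. With a replicate block within culture condition, and in parentheses with GC correction added, 3 (2) members were called over both genotypes (25.6% and 25.9% of all features; GC correction left out miR-23b-3p and so tested 5 members), LPS calls numbered 99 (87) in wt and 90 (66) in 3′RR-deficient cells, and those between 3′RR-deficient and wt cells 1 (1) without LPS, 2 (10) with LPS and 7 (10) over both. GC correction with this block called 2 members within wt (17.4% of 501 features). For Eµ-deficient cells 105 (63) calls were made, with 2 members by the block alone (10.6% of 988 features). In this comparison miR-23a-3p was -0.21 by the block and miR-27a-3p 0.12 by both. The log2 changes with LPS were -0.36 (-0.36) for miR-24-3p and -0.47 (-0.35) for miR-27b-3p, and that of miR-27a-3p between 3′RR-deficient and wt cells -0.028 by both. The block ended the call of miR-23a-5p (-1.58 and, within condition, -1.06).

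With 1 library left out in turn, LPS calls ranged from 71 (without wt LPS replicate 2) to 163 over both genotypes, from 0 (without wt non-stimulated replicate 2 or wt LPS replicate 1) to 71 in wt and from 0 (without 3′RR-deficient non-stimulated replicate 2 or wt LPS replicate 1) to 62 in 3′RR-deficient cells. They ranged from 0 to 1 between 3′RR-deficient and wt cells over both conditions and from 1 (without the Eµ-deficient LPS library) to 33 for Eµ-deficient cells. A group left with 1 library was assumed to vary like the others. Log2 changes that turned ranged from -0.21 to 0.28 for miR-24-3p with LPS. Between 3′RR-deficient and wt cells they ranged from -0.51 to 0.33 for miR-27a-5p, -0.068 to 0.28 for miR-27a-3p, -0.046 to 0.43 for miR-24-3p and -0.10 to 0.48 for miR-27b-3p, and between Eµ-deficient and wt cells from -0.44 to 0.28 for miR-27a-3p, -0.52 to 0.32 for miR-24-3p, -0.13 to 0.36 for miR-23b-3p and -0.17 to 0.56 for miR-23a-3p.

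The LPS difference of the log2 ratio to miR-23a-3p was 0.67 for miR-27a-3p and 1.02 for miR-24-3p without the Eµ-deficient libraries, 0.86 and 0.84 without the second non-stimulated ones, and 0.65 to 0.82 and 0.88 to 1.09 with 1 library left out, where the adjusted p-values (0.0794 to 0.179, exact permutation test) could not pass with so few libraries. Over 22 settings, refits of the same libraries, the fitted LPS response exceeded that of miR-23a-3p by 0.56 to 1.2 for miR-24-3p. For miR-27a-3p it did so by 0.45 to 0.94, and both differences were least with GC correction and replicate block together. The miR-23a-3p to miR-23b-3p difference ranged from -0.14 to 0.047. Between 3′RR-deficient and wt cells, within non-stimulated libraries, the differences were -0.029 for miR-23a-3p to miR-23b-3p, 0.23 for miR-27a-5p to miR-27a-3p and 0.21 for miR-24-3p to miR-23a-3p, and within LPS libraries 0.081 for miR-27a-3p to miR-27b-3p. With 1 library left out they ranged from -0.068 to 0.24, -0.48 to 0.20, -0.21 to 0.21 and -0.37 to 0.21 in this order, and from -0.29 to 0.054 for miR-27a-3p to miR-23a-3p. Apart from leaving out 1 library, the alternatives left 201 values of log2 changes on the same side of 0 and of the threshold, while 32 turned, 13 passed the threshold and 8 lost it. Of counts and ratios 180 stayed, 50 moved, 4 turned and 4 lost the threshold. The cause of these shifts was not tested.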
